A study of Mus musculus with 24 samples.

Results

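Intergenic distal regions of H3K27ac that were called in every list of a mouse liver series were examined. H3K27ac peaks on the 19 autosomes in 4 merged lists (1 for each strain and sex) were joined into 117616 union regions wherever they overlapped by at least 1 bp. Of these, 47477 had a peak in all 4 lists. The 13038 regions described here, called members for short, made up 27.5% of the regions found in all lists. A member was under 5000 bp wide, lay more than 2500 bp from the start of every annotated transcript (GENCODE vM1 on mm9) and overlapped no annotated gene body. By distance to the nearest protein-coding start, 2402 members lay under 10 kb away, 5849 at 10 to 50 kb, 2267 at 50 to 100 kb and 2520 over 100 kb away. The members were chosen by measured values, namely the presence of a peak in each list and the width of the union region, so peak heights, widths and shares of lists are given as descriptions, with no test.

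The study compared liver chromatin between the sexes in 2 inbred mouse strains of different subspecies, C57BL/6J (here B6) and CAST/EiJ (here CAST), at 8 weeks of age by the labels and with no treatment named in them. ChIP-seq was carried out on 20 livers, 5 for each strain and sex, with 1 input control per group, to look for regulatory elements of sex-biased genes that the strains share or do not share. Groups were taken from the sample titles, since the strain field of the labels names B6 for every male and CAST for every female; the names of the lists and the methods of the study go with the titles. Each deposited list pools the 5 livers of its group, so there is no replicate error, SD or p-value for any peak value, and the tissue is whole liver with all of its cell types. A lower fold enrichment in such tissue cannot tell fewer cells that carry the mark from less mark in each cell.

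H3K27ac, the acetylation of lysine 27 on histone H3, marks active promoters and enhancers, the latter being stretches of regulatory DNA that bind transcription factors and act on a promoter that can lie far away. In hepatocytes, enhancers are known to be bound by combinations of FOXA, HNF4A, HNF1, CEBP and ONECUT factors. Sex differences in liver enhancers are known to follow the pattern of pituitary growth hormone release, which acts through STAT5 and through repressors such as BCL6 and CUX2. Acetylated chromatin outside genes is usually read as enhancer chromatin, but an unannotated promoter carries the same mark.

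Sequences of 300 bp are shown for 6 members, read from the centre of the region on the forward strand of the reference genome NCBIM37 (mm9), with every match to a searched motif in capitals. The first 3 are the regions with the highest score percentile under 10 kb, at 10 to 50 kb and at 50 to 100 kb. The next pair led the male and the female direction of the sex comparison. The last led the CAST direction of the strain comparison and was added after its values were seen.
Region of Zfp869 (chr8:72239994-72240293): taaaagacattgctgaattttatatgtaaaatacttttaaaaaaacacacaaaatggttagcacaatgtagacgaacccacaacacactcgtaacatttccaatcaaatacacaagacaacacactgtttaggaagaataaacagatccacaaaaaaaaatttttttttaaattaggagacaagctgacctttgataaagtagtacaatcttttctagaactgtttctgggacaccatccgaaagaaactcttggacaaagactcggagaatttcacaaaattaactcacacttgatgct
Region of Pum2 (chr12:8647759-8648058): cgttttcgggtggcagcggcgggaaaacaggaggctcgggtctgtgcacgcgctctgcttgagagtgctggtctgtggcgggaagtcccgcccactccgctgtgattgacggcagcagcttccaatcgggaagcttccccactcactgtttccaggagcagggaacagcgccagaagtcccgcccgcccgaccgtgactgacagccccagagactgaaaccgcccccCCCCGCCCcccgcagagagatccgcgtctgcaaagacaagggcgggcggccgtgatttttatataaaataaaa
Region of Wnt7b (chr15:85465523-85465822): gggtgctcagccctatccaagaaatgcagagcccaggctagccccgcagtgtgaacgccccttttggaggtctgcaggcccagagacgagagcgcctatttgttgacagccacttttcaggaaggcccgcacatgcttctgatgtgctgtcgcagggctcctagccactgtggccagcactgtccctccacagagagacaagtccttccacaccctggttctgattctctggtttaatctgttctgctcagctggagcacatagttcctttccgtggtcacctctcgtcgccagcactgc
Region of Dab2 (chr15:6159686-6159985): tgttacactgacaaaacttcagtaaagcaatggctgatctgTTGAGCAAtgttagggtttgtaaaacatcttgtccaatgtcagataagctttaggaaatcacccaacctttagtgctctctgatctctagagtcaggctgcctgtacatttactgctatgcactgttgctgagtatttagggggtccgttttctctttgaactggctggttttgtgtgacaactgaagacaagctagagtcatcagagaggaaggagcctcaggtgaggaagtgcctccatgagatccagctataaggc
Region of Slc22a26 (chr19:7841627-7841926): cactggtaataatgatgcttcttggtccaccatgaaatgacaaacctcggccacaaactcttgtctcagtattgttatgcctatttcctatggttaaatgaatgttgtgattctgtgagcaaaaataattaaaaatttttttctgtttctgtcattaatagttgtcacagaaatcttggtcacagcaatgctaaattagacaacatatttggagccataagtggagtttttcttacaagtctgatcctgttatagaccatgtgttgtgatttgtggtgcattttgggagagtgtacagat
Region of Fam174a (chr1:97348507-97348806): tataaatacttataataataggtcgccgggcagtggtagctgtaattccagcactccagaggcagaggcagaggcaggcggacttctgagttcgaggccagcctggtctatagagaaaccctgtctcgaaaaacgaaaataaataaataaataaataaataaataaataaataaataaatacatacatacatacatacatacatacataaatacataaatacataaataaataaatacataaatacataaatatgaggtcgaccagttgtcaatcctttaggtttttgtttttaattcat
In capitals are a match to the Sp/KLF motif GGGCGGGG on the reverse strand in the region of Pum2 and a match to the CEBP motif TTGCNCAA on the reverse strand in the region of Dab2, read as TTGAGCAA on the forward strand. The other 4 windows held no match to any of the 14 motifs. The window of Pum2 was rich in G and C (62.3%) and held 25 CpG dinucleotides, against 9 in the window of Wnt7b, 4 in that of Zfp869 and 1 each in those of Dab2 and Slc22a26. The window of Fam174a held a tandem repeat of 44 bases, while in the other 5 the longest tandem repeat of units up to 4 bases was 6 to 12 bases.

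The lists do not hold read counts; the study gives depth by library, which was not used here. The lists held 79862 (B6 male), 82181 (B6 female), 90228 (CAST male) and 84645 (CAST female) peaks. Of 8 hepatocyte markers, 7 had a peak within 1000 bp of a coding start in every list, including Alb (albumin) and Hnf4a; Serpina1a had none. None of the 6 markers of tissues other than liver had one in any list. Among markers of other liver cells, 0 or 1 of 5 Kupffer cell genes (Adgre1 is not named so in the annotation), 2 or 3 of 4 sinusoidal endothelial genes, 1 or 2 of 4 stellate cell genes, 2 of 4 cholangiocyte genes and 0 or 1 of 4 lymphocyte genes had a peak, depending on the list.

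The members were peaks of middle rank with a small strong tail. Their median fold enrichment over background, taken at the highest peak of the region, was 2.96 in males and 2.95 in females of B6, and 3.17 and 2.98 in those of CAST. Distal regions in gene bodies, which pass the same limits but overlap an annotated gene, had medians of 2.64, 2.64, 2.81 and 2.70, and promoter regions of 4.0, 4.05, 4.30 and 3.99. In every list the order was thus promoters, members, gene-body regions. The distance classes differed little, with medians in B6 males of 2.83 under 10 kb, 2.99 at 10 to 50 kb, 3.0 at 50 to 100 kb and 3.02 over 100 kb.

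**Figure D1:**
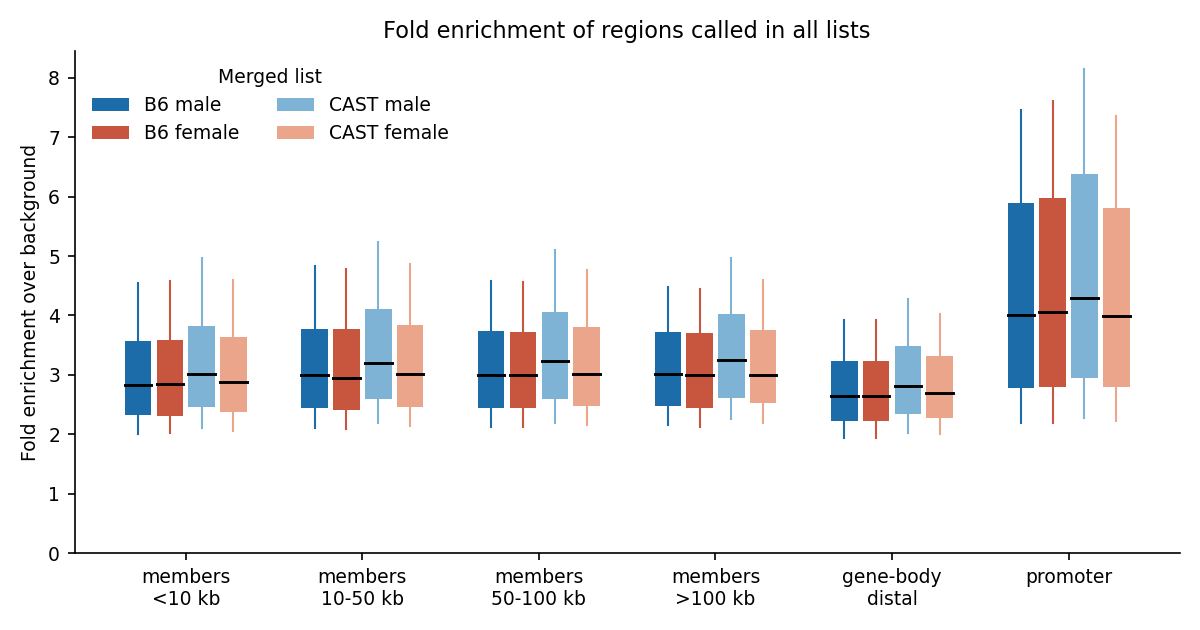
Fold enrichment of the highest peak (vertical axis, linear) in each merged list for the 4 distance classes of members and for gene-body distal and promoter regions. Black lines are medians, bars run from the 25th to the 75th percentile and thin lines from the 10th to the 90th over regions, not over livers; members lie between gene-body and promoter regions in every list.

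Rank by peak score gave a different order across distance. The score of each peak was turned into a percentile within its list, and the lowest of the 4 percentiles had a median of 51.5 over members, 54.0 under 10 kb and 46.8 over 100 kb. Of the members, 296 (2.27%) stood in the highest 10% of every list, against 0.512% of gene-body regions and 34.6% of promoter regions. Within the members the share was 2.96% under 10 kb (71 members) and 0.397% over 100 kb (10 members). At the other end, 7.0% of members fell into the lowest 10% of at least 1 list, near the 6.38% of all regions, against 9.68% of gene-body and 2.79% of promoter regions.

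The union regions had a median width of 1269 bp, and the stretch covered by peaks of all 4 lists had a median of 601 bp. In 309 members (2.37%) no single base was covered in all 4 lists, since peaks of different lists were joined through peaks of another list. The positions of the highest summits of the 4 lists spread over a median of 180 bp, and in 77.2% of members over at most 500 bp. Across members, Pearson's r of log2 fold enrichment between lists ran from 0.776 (B6 female with CAST female) to 0.881 (CAST male with CAST female). This is a description over 13038 regions, in which all values of a list share the same pooled livers and 1 input.

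The limits of width and distance parted the following regions. The widest member, of 4673 bp, lay at chr1:107071652-107076324, 177.0 kb from Rnf152, with fold enrichments of 3.35, 3.43, 3.49 and 3.65 in the order B6 male, B6 female, CAST male, CAST female. Only 1 intergenic distal region found in all lists was left out for its width, 5420 bp on chromosome 18 near Ccny, with 2.44, 2.50, 2.67 and 2.49. The member closest to any start, at chr4:136676560-136677663, lay 2502 bp from Gm13001 and had 4.29, 3.40, 3.57 and 4.21. On the other side of that limit, a region at exactly 2500 bp from the start of B4galt6 had 2.23, 2.69, 3.47 and 5.13, and 1806 regions outside gene bodies were left out because they lay within 2500 bp of a start. The farthest member, at chr17:61198182-61198600, lay 1757 kb from the start of Efna5, and 176 members lay over 500 kb from any coding start.

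Strong members were ranked within each distance class by the lowest percentile of score in any list, so a region with a higher fold enrichment can stand lower in this order. At 10 to 50 kb from a coding start, the first of them also led by fold enrichment. The region at chr12:8647323-8648494, 32.4 kb from Pum2 (ENSMUSG00000020594.7, an RNA-binding protein of the Pumilio family), had enrichments of 20.5-fold in males and 19.8 in females of B6, and 23.7 and 24.2 in those of CAST, the highest of all 47477 regions in each of the 4 lists. Second by percentile was a region of 689 bp at chr11:53953534-53954222, 32.7 kb from P4ha2, a collagen prolyl hydroxylase, with 16.5, 15.4, 21.6 and 21.9. Next by percentile was chr19:32181336-32182929, 45.4 kb from Asah2, which encodes neutral ceramidase, with 10.1, 10.2, 11.1 and 9.21. At Pum2 and P4ha2 both CAST lists were higher than both B6 lists, while at Asah2 the ranges of the strains overlapped.

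Under 10 kb from a coding start the leading member by percentile lay at chr8:72239432-72240856, 4.81 kb from Zfp869, a zinc finger protein, with 10.1, 10.4, 12.9 and 12.1 in the same order. It was followed by chr7:108458324-108460041, 5.56 kb from Stard10, a lipid transfer protein, with 8.81, 8.63, 8.97 and 8.12, and by chr8:74405064-74406953, 4.21 kb from Zfp709, with 10.4, 10.1, 9.69 and 9.38. The lowest percentile of score in any list was 99.9, 99.7 and 98.8 for these regions. By fold enrichment the members at the RefSeq starts of Zfp873 and Zfp964, under 10 kb as well, stood above that of Stard10 in every list.

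At 50 to 100 kb the first region by percentile, at chr15:85465188-85466158, 52.9 kb from Wnt7b, a Wnt ligand, had 9.02, 8.93, 11.7 and 10.5. The next by percentile, chr8:47771817-47773241, lay 51.9 kb from Irf2, an interferon regulatory factor, and had 7.57, 9.79, 9.37 and 7.85. Over 100 kb, a region among the 3 highest by percentile, chr16:24102836-24104686, lay 113.9 kb from Bcl6 (ENSMUSG00000022508.5, a transcriptional repressor) and had 6.63, 6.85, 7.60 and 7.83. Near Irf2 the female list was higher in B6 and the male list in CAST, and near Bcl6 the CAST lists stood above the B6 lists. Further regions in these classes lay 52.0 kb from Ccdc25, at chr14:66508152-66510288, with 6.02, 6.33, 6.79 and 6.40, and 173.5 kb from Gm1968, at chr16:29787440-29788846, with 6.88, 6.60, 7.79 and 6.94.

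The annotation behind the rule did not cover every start. RefSeq promoters (table of build GRCm38.p6, with 1 start for each of 32851 genes) were matched letter for letter over 100 bases around the start to the mm9 sequence in and around the members on the same chromosome. A RefSeq start lay inside 504 members (3.87%) and inside or within 2500 bp of 1193 (9.15%), with 8.10% over 100 kb and 11.2% at 50 to 100 kb. Among the 296 members in the highest 10% of every list the count was 75 (25.3%). The leading regions at Zfp869 and Zfp709 held the RefSeq starts of those genes themselves, and the one near Wnt7b lay beside the start of D130051D11Rik, so these regions go against the label of distal element. Other strong members of this kind held the RefSeq starts of Zfp873, Zfp964, Zfp639 and Zfp518a.

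CpG-rich sequence went with height in the same way. A window of 200 bp with at least 50% G and C and a CpG count of at least 0.6 of that expected from base content was present in 2103 members (16.1%), in 10.7% of gene-body distal regions and in 67.4% of promoter regions. In the highest 10% of every list it was present in 220 of 296 members (74.3%), and in 8 of the 12 regions that led the distance classes, the exceptions being those near P4ha2, Ccdc25, Bcl6 and Gm1968. CpG-rich members had median fold enrichments of 3.53, 3.50, 3.82 and 3.52, and the other 10935 of 2.89, 2.88, 3.07 and 2.91, in the order B6 male, B6 female, CAST male, CAST female. Wider regions offer more windows, and the median widths were 1436 bp with and 1231 bp without such a window; the part of width was not tested. A CpG-rich window was found in 29.3% of members near a RefSeq start and in 14.8% of the others.

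Sequence was not used by the rule, so base content and motif matches could be tested. Windows of 300 bp at the midpoint of each region were scored for GC content, for the ratio of observed to expected CpG and for 14 motifs on both strands, and per-autosome differences (n = 19) were tested with a two-sided sign-flip permutation test with 100000 resamples and Benjamini-Hochberg adjustment over 32 tests. The smallest p these resamples can give is 1e-05. The test compares sets of regions, not the conditions of the study.

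Against gene-body distal regions, members differed in 3 of 16 features. GC content was 47.4% in members and 46.8% in gene-body regions, with a mean difference of 0.733 percentage points (SD over autosomes 0.734, higher on 17 of 19, permutation adjusted p = 0.00224). Observed over expected CpG was 0.245 and 0.221, higher in members on 19 of 19 autosomes (mean difference 0.0244, SD 0.0107, permutation adjusted p = 8e-05). The Sp/KLF motif GGGCGGGG, bound by factors common at CpG-rich promoters, had a match in 355 members (2.72%) and in 1.48% of gene-body windows, higher on 18 of 19 autosomes (mean difference 1.29 points, SD 0.739, permutation adjusted p = 0.000192). Without members near a RefSeq start, an alternative chosen after seeing the data, the differences were 0.506 points for GC (permutation adjusted p = 0.042), 0.0184 for CpG (permutation adjusted p = 8e-05) and 1.08 points for Sp/KLF (permutation adjusted p = 8e-05). None of the motifs of hepatocyte factors passed the test in this comparison. The CEBP motif came closest, with 4.53% of members and 4.04% of gene-body windows (mean difference 0.565 points, SD 1.08, higher on 12 of 19, p = 0.0339, permutation adjusted p = 0.0903).

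Members far from genes differed from those near genes in 7 of the 16 features. Base content fell with distance, with GC at 48.4%, 47.9%, 47.4% and 45.3% from the nearest to the farthest class. Over 100 kb against under 10 kb the mean difference was -2.86 points (SD 1.24, lower on 19 of 19 autosomes, permutation adjusted p = 8e-05), and CpG observed over expected was lower on 18 of 19 (mean difference -0.0385, SD 0.0235, permutation adjusted p = 8e-05). The ONECUT motif ATCAAT, the core of the site of hepatocyte factor ONECUT1 (HNF6), was found in 8.70% of the near and 14.8% of the far members (mean difference 6.08 points, SD 4.22, higher on 18 of 19, permutation adjusted p = 8e-05). In windows 5000 bp to either side of the same members its share was 11.01% and 15.2%, which are above the shares within members; this difference was not tested.

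The CEBP motif TTGCNCAA rose from 3.87% near to 5.397% far (mean difference 1.96 points, SD 2.91, higher on 15 of 19 autosomes, permutation adjusted p = 0.0127), while the windows beside them had 2.77% and 2.80%. The NFI motif TTGGCA, a partial site, rose from 17.4% to 20.9% (mean difference 3.78 points, SD 5.31, higher on 14 of 19, permutation adjusted p = 0.0127), with 14.2% and 15.4% beside the members. For both motifs the shares within members were the higher ones in both classes; members were not tested against the windows beside them. The motif CCAGNNGGC of CTCF, the factor that bounds chromatin loops, fell from 7.87% to 4.84% (mean difference -2.78 points, SD 2.34, lower on 15 of 19, permutation adjusted p = 0.00149) and from 5.58% to 3.29% beside them. Sp/KLF fell from 3.71% to 1.87% (mean difference -1.80 points, SD 2.80, lower on 14 of 19, permutation adjusted p = 0.0127) and from 2.04% to 0.655% beside them. GC content beside the members fell likewise, from 46.2% to 42.4%; the part of base content in the motif differences was not tested.

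**Figure D2:**
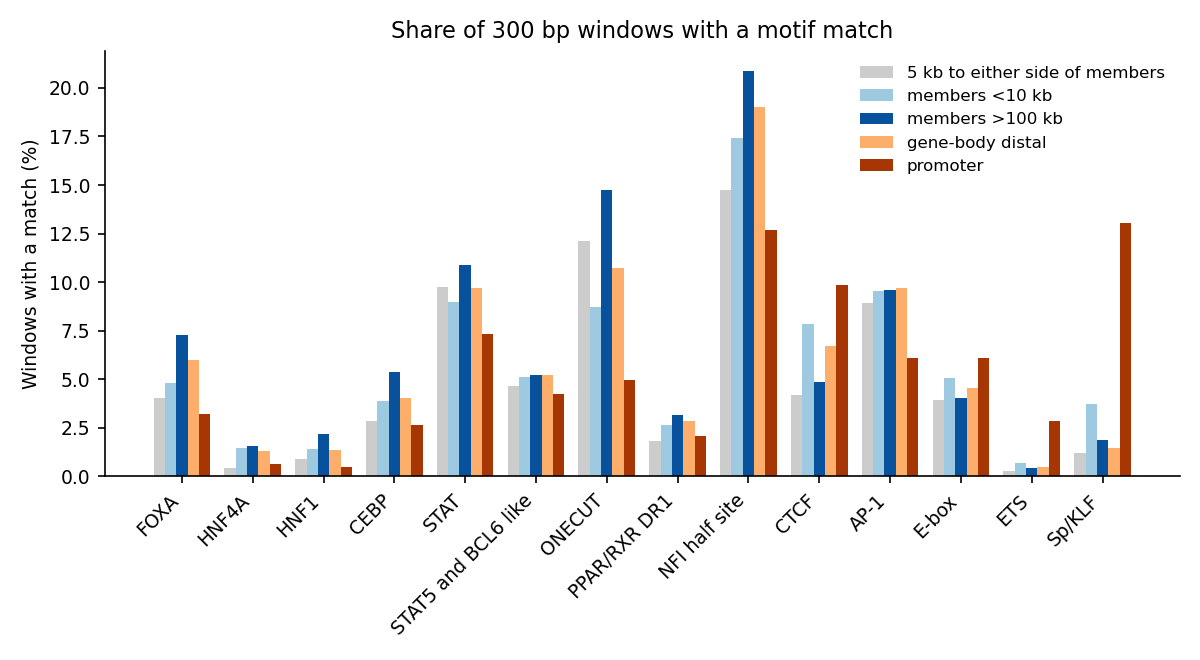
Share of 300 bp windows with at least 1 match to each motif (vertical axis, percent) in windows 5000 bp to either side of members, in members under 10 kb and over 100 kb from a coding start, and in gene-body distal and promoter regions. Sp/KLF stands at 13.03% in promoters and at most 3.71% in the other sets, and ONECUT at 4.94% in promoters and 14.8% in members over 100 kb.

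The remaining motifs are given beside the share of all 47477 regions, over windows of the same length. FOXA (TGTTTAC, a pioneer factor site) matched in 5.75% of members and 4.90% of all regions, with 4.05% beside members, and its rise with distance from 4.79% to 7.30% did not pass the test (p = 0.0245, permutation adjusted p = 0.0713). HNF4A (CAAAGTCCA) matched in 190 members (1.46%) against 1.11% of all regions and 0.426% beside members, a difference that was not tested. HNF1 (GTTAATNAT) matched in 1.503%, against 1.07% and 0.905% in those sets.

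In members, all regions and windows beside members in turn, PPAR/RXR DR1 (GGTCANAGG) had 2.78%, 2.55% and 1.84%, and AP-1 (TGANTCA) 9.96%, 8.43% and 8.94%. The growth hormone effector site STAT (TTCNNNGAA) had 9.93%, 8.89% and 9.76%, and its subset TTCCNNGAA, like sites of STAT5 and BCL6, 5.29%, 4.88% and 4.65%. E-box (CACGTG) had 4.74%, 5.18% and 3.95%, and ETS (CCGGAAGT) 0.529%, 1.36% and 0.292%. In all regions the shares were 6.11% for Sp/KLF, 7.77% for CTCF, 8.62% for ONECUT and 16.6% for NFI. Every STAT5 and BCL6 like match is also a STAT match, and a match of letters is not a bound site.

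Male and female lists were compared at the members, which the rule had limited to regions with a peak in both sexes. The lean of a member was taken as the log2 ratio of male to female fold enrichment, centred on the median over all 47477 regions of -0.00998 in B6 and 0.0786 in CAST. Past 1.5-fold in both strains, 13 members leaned to males (0.0997%) and 7 to females (0.0537%). Over all regions 0.0653% leaned to males and 0.0253% to females at that limit. Of the 13, 9 lay over 100 kb from a coding start (0.357% of that class), 2 at 10 to 50 kb and 1 each in the other classes. Of the 7, 2 lay over 100 kb, 2 at 50 to 100 kb and 3 at 10 to 50 kb.

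In single strains many more members passed 1.5-fold: 174 to males and 71 to females in B6, and 145 and 93 in CAST. These were 1.33% and 0.545% of members against 0.769% and 0.354% of all regions in B6, and 1.11% and 0.713% against 0.752% and 0.493% in CAST. Between the strains the leans had little in common over members, with Pearson's r = 0.106 and Spearman's rho = 0.0774 over 13038 regions and the same sign in 51.7%, as a description. No p-value can be given, since each lean compares 2 pooled lists. The members were not chosen for sex bias, and a peak in both sexes was required. For sex-biased H3K27ac regions shared by the strains, the paper reports the same direction in nearly all.

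The member that led the male direction was narrow. At chr15:6159506-6160166, 89.6 kb from Dab2, a clathrin adaptor, fold enrichment was 4.196 in males and 2.18 in females of B6, and 6.23 and 2.86 in those of CAST, so both male values lay above both female values. Its centred log2 lean was 0.95 in B6 and 1.04 in CAST, which ranked it first by the smaller of the leans. The female peaks there stood at percentile 16.1 of score in B6 and 43.5 in CAST, so the B6 lean rests on a weak peak. Next, chr5:89750181-89751777, 135.0 kb from Gc, the plasma vitamin D binding protein, had 4.29, 2.34, 4.53 and 2.36 (leans 0.89 and 0.86). After it, chr1:33270204-33272467, 406.5 kb from Prim2, a subunit of DNA primase, had 4.08, 2.18, 4.04 and 2.19 (leans 0.91 and 0.81).

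The fifth in this direction lay near the growth hormone receptor gene itself: chr15:3669342-3671625, 136.1 kb from Ghr, with 4.41, 2.69, 3.94 and 2.13 (leans 0.72 and 0.81). Of the other 4 members nearest to Ghr, the one 25.1 kb away had a lean of 0.08 in B6 and 0.80 in CAST, and the remaining 3 had leans between -0.16 and 0.25. The remaining male-leaning members had Mrpl15, Gm2058, Nebl, Mgat5, Ncam2, Sh2d4b, Fam63b, Rpsa-ps10 and Gpc5 as nearest coding genes. Over the 13 the median fold enrichment was 4.29 in males and 2.34 in females of B6, and 4.53 and 2.75 in those of CAST. Of them 1 was CpG-rich and none lay near a RefSeq start, beside 16.1% and 9.15% of all members. Their lowest percentile of score had a median of 16.3 against 51.5, but a choice by large lean itself lowers this measure. It was 30.3 in the members past the limit to B6 and 29.5 in those to CAST.

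Female-leaning members included 2 near Slc22a26, an organic anion transporter of the liver known as more highly expressed in females. The first, chr19:7841082-7842471, 34.6 kb from its start (ENSMUSG00000053303.8), had 2.94 in males and 5.69 in females of B6, and 2.98 and 4.86 in those of CAST (leans -0.94 and -0.78). The second, chr19:7849166-7850703, 26.4 kb away, had 5.42, 9.14, 5.64 and 11.2 (leans -0.74 and -1.06). A further member 36.5 kb away had 5.89, 7.81, 5.64 and 7.44 (leans -0.40 and -0.48), so that all 3 members nearest to this gene were higher in females in both strains.

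Among the other members in the female direction 2 lay on chromosome 8. At chr8:91967720-91969207, 256.3 kb from Gm5356, the values were 2.17, 3.89, 2.13 and 3.42 (leans -0.83 and -0.76). At chr8:91620707-91622259, 52.6 kb from Sall1, a zinc finger transcription factor, they were 3.36, 5.56, 3.57 and 6.54 (leans -0.72 and -0.95). Glis3, E130309F12Rik and G930045G22Rik were nearest to the remaining 3. Over the 7 the medians were 2.48, 4.32, 2.40 and 3.65, with 1 CpG-rich region and none near a RefSeq start. Their median lowest percentile was 24.9, which the choice by large lean likewise lowers.

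**Figure D3:**
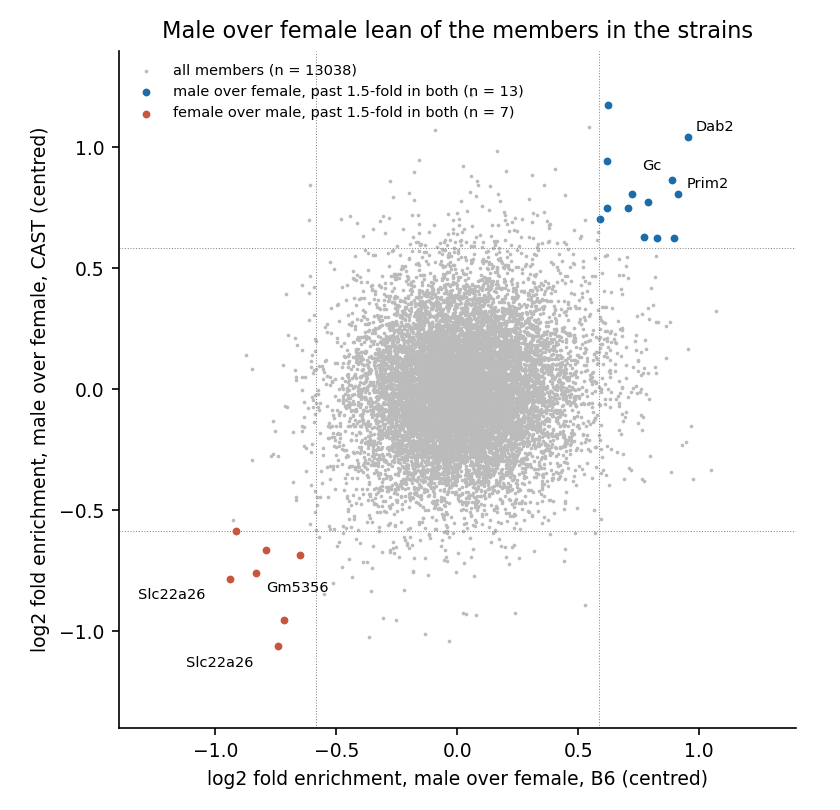
Centred log2 ratio of male to female fold enrichment of each member in B6 (horizontal axis) and CAST (vertical axis), with dotted lines at 1.5-fold. Each point is 1 region compared between pooled lists; 13 members lie past 1.5-fold to males and 7 to females in both strains, and the labels name the nearest coding gene of the leading 3 in each direction.

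More members passed the same limit between strains than between sexes. The B6 over CAST ratio was centred on -0.0967 in males and -0.00917 in females. Past 1.5-fold in both sexes, 78 members leaned to B6 (0.598%) and 80 to CAST (0.614%), and over all regions 0.36% and 0.4% did so. Without centring the counts were 48 and 122, so the even split between the strains rests on the centring. The leans in males and females had r = 0.416 and rho = 0.347 over members and the same sign in 60.5%, a description in which both CAST lists share the custom CAST genome used for mapping.

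The leading B6 member, chr11:58727573-58728793, 2.62 kb from Butr1, had 7.62 in males and 8.70 in females of B6, and 3.79 and 2.09 in those of CAST (leans 1.11 in males and 2.07 in females). It was followed by chr6:112961776-112963211, 33.0 kb from Thumpd3, with 4.78, 4.21, 2.45 and 2.13 (leans 1.06 and 0.99), and by chr13:101364162-101365839, 21.03 kb from Marveld2, a tricellular junction protein, with 5.74, 6.08, 3.23 and 2.86 (leans 0.93 and 1.10). In these 3 both B6 lists lay above both CAST lists. Of the 78, 16 were CpG-rich (20.5%) and 9 lay near a RefSeq start, beside 16.1% and 9.15% of all members.

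In the CAST direction the leading member was the narrow region whose repeat-rich window is shown above, chr1:97348501-97348812, 138.3 kb from Fam174a, with 3.62, 2.99, 12.8 and 14.8 (leans -1.73 and -2.30). It was 312 bp wide. Next came chr18:83599087-83600869, 515.1 kb from Zfp516, with 2.38, 2.08, 6.28 and 6.24 (leans -1.31 and -1.58), and chr15:84313500-84314939, 36.0 kb from 1810041L15Rik, with 2.12, 1.83, 5.11 and 4.22 (leans -1.17 and -1.20).

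The fourth lay in a cluster of drug-metabolising cytochrome P450 genes, at chr5:146832425-146835802, 11.2 kb from Cyp3a25, with 4.54, 4.29, 10.2 and 11.3 (leans -1.08 and -1.38). Of 53 regions examined singly, the centre windows of 52 occurred at a single place in mm9 at 90% identity over at least 80% of their length, including that of Fam174a. The exception was the fifth region in the CAST direction, chr6:3000400-3000903 near Samd9l, which had 7 other places and values of 3.25, 4.37, 7.72 and 9.14. This search did not count stretches shorter than 80% of a window that recur elsewhere. The window of Fam174a holds the tandem repeat described above, so the search does not show that all of its sequence is unique. Of the 80, 10 were CpG-rich (12.5%) and 4 lay near a RefSeq start, beside 16.1% and 9.15% of all members. CAST reads were mapped to a CAST genome made from known variants; the part of mapping in these leans was not tested.

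**Figure D4:**
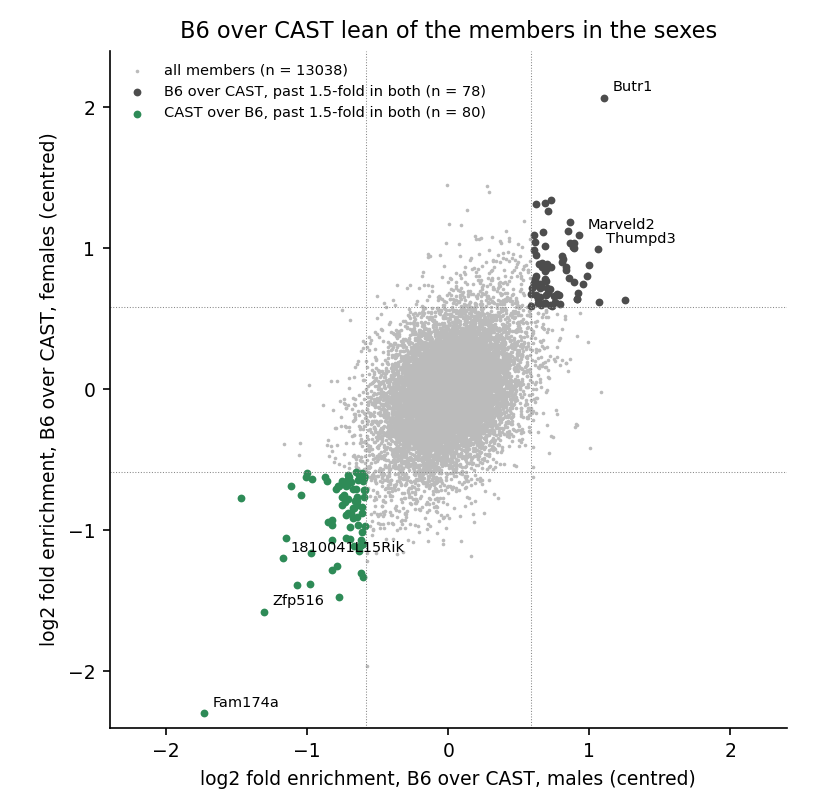
Centred log2 ratio of B6 to CAST fold enrichment of each member in males (horizontal axis) and females (vertical axis), with dotted lines at 1.5-fold. Each point is 1 region compared between pooled lists; 78 members lie past 1.5-fold to B6 and 80 to CAST in both sexes, with the region of Fam174a farthest to CAST and that of Butr1 farthest to B6.

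Members were spread unevenly over genes. Of 21275 autosomal coding genes, 5048 were the nearest to at least 1 member (23.7%) and 156 to at least 10 (0.733%). The 10 genes nearest to most members were Id2 with 30, Zfp36l1 with 29, Gadd45g with 28, Tbl1xr1 with 27, Irf2bp2 and Ppap2b with 26 each, Bcl6, Gm10293 and Pik3r1 with 25 each and Maf with 23. Id2 inhibits helix-loop-helix factors, Zfp36l1 promotes mRNA decay, Gadd45g is a stress-response gene, Tbl1xr1 is part of a nuclear receptor corepressor complex, Pik3r1 is the regulatory subunit of phosphoinositide 3-kinase and Maf is a leucine zipper transcription factor. The farthest of the members lay 648.4 kb from Tbl1xr1 but 159.4 kb from Gm10293, so the stretch over which members were assigned differed between genes.

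Around Id2 the members lay 3.03 to 320.4 kb from a start, with median fold enrichments of 2.37, 2.46, 2.53 and 2.48 in the order B6 male, B6 female, CAST male, CAST female and a highest value of 6.80. Around Pik3r1 they were stronger, with medians of 3.28, 3.09, 3.47 and 3.24. Density by chromosome ran from 3.97 members per Mb on chromosome 14 to 7.65 on chromosome 19.

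Bcl6, whose product is a male-biased repressor that opposes STAT5 in liver, had the most members among growth hormone genes. Of its 25 members, 24 lay upstream of the gene, 4.48 to 194.1 kb from its start, and 1 lay downstream. Their median fold enrichment was 2.46 in males and 2.45 in females of B6, and 2.72 and 2.81 in those of CAST, with the region at 113.9 kb above the others in every list. The male to female lean was above 0 in 8 of 25 in B6 and in 10 of 25 in CAST, with medians of -0.05 and -0.04, and no member near this gene passed 1.5-fold.

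**Figure D5:**
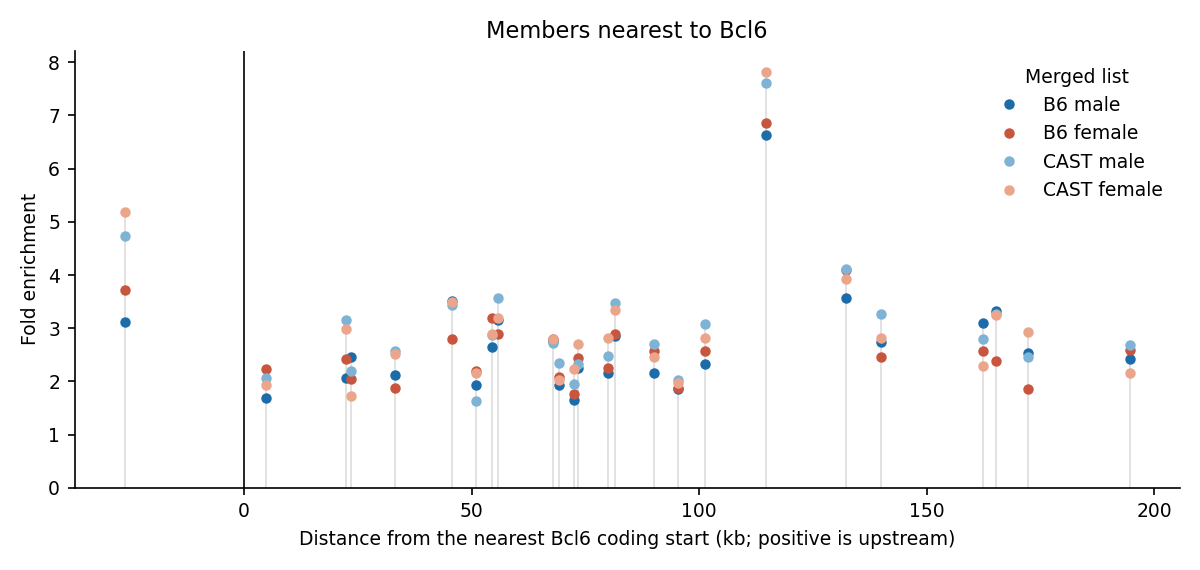
Fold enrichment (vertical axis, linear) in the 4 merged lists for the 25 members nearest to Bcl6 against distance of the region's centre from the nearest coding start (horizontal axis, kb, positive upstream). Each point is 1 pooled list; the region centred at 114.8 kb stands at 6.63 to 7.83 and no other region exceeds 5.18.

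Members joined across gaps of at most 12.5 kb formed 7503 groups, of which 4739 held 1 member, 358 held at least 5 and 24 at least 10. The largest held 18 members over 89.2 kb at chr2:27407885-27497098, between Wdr5 and Rxra, the latter encoding the partner of many nuclear receptors in liver. Its median fold enrichment was only 2.04, 2.13, 2.11 and 2.19, although its median lowest percentile was 67.2. Second was the group upstream of Bcl6, with 17 members over 93.7 kb. Groups of 14 members lay at chr5:9015463-9070232 near Crot and 4930420K17Rik, at chr6:121036231-121129946 near Pex26 and Mical3, at chr3:121524178-121618729 near Abcd3 and Arhgap29, and at chr14:77177737-77252595 near 9030625A04Rik and Serp2.

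Lists of liver genes were compared with the 23.7% of all autosomal coding genes that were nearest to a member. Of 18 growth hormone signalling genes, 16 (88.9%) had at least 1, led by Bcl6 with 25, Igf1 with 7 and Socs3 with 6. Of 24 hepatocyte transcription factors, 16 (66.7%) had one, led by Onecut1 with 20, Nr5a2 with 16 and Foxa2 with 12, the last at 101.8 to 322.3 kb. Foxa3 and Nr1i3 were among those that had none.

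Plasma protein genes had a member in 15 of 30 cases (50%), led by Apob with 14, Gc with 12 and Alb with 9. For glucose metabolism it was 12 of 17 (70.6%), with 11 at Irs2, 10 at Ppargc1a and 7 at Pdk4. For cholesterol, bile acid and lipid metabolism it was 16 of 24 (66.7%), with 7 each at Cyp7a1, Elovl5 and Elovl6. Clock genes followed with 12 of 18 (66.7%), led by Npas2 with 6, and acute phase genes with 11 of 16 (68.8%), led by Cebpb with 8 and Nfkbia with 7. Genes of other liver cell types had 11 of 23 (47.8%), led by Kdr, an endothelial receptor, with 5, and genes of other tissues 5 of 19 (26.3%), with 3 at Sox2 and 2 at Cdx2. Only the genes of other tissues stood near the share of all genes; no test was made of these shares.

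Genes known as higher in one sex were looked at by the direction of their members. Of 15 genes known as higher in males, 11 (73.3%) had a member, with 67 members in all, among which the lean was above 0 in 26 in B6 and in 31 in CAST. Of 18 known as higher in females, 9 (50%) had one, with 21 members, of which 7 in B6 and 6 in CAST leaned above 0. Over all members 52.2% did so in B6 and 49.2% in CAST. Among the male genes Bcl6, which is also in the growth hormone list, led with 25, then Cyp7b1, Mup20 and Nudt7 with 8 each, and among the female genes A1bg with 5, then Hao2 and Slc22a26 with 3 each.

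Gene by gene the directions of these members were mixed. Regions at promoters, in gene bodies or called in 1 sex only are not among them, so the directions do not describe all H3K27ac at these genes. The paper reports male-biased enhancers in both strains near Gstp1 and Nudt7. Of the 11 genes known as higher in males, the median lean was above 0 in both strains at 3 (Elovl3, Moxd1 and Susd4), below 0 in both at 5 (Bcl6, Gstp1, Mup20, Nudt7 and Slco1a1) and of different sign at the other 3. The medians were 0.17 and 0.18 at Elovl3, a fatty acid elongase with 2 members, and -0.25 and -0.20 at Nudt7, a peroxisomal coenzyme A hydrolase with 8. Of the 9 genes known as higher in females, it was below 0 in both strains at 4 (A1bg, Abcd2, Hao2 and Slc22a26), above 0 in both at 3, Cux2 and Cyp17a1 among them, and of different sign at 2. The medians were -0.74 and -0.78 at Slc22a26.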

How the data were processed

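H3K27ac ChIP-seq peaks were analysed from 4 lists that pool the 5 livers of a group (20 livers and 4 inputs, 24 samples). Per the submitters' processing notes and the study's methods, reads were aligned with Bowtie2 and MACS2 called peaks at q 0.05 with each group's own input as control. B6 reads were mapped to mm9, and CAST reads to a custom CAST genome and then converted to mm9. The score, the fold enrichment (a ratio to local background) and the −log10 p-value of each peak were used as the authors deposited them. The lists hold no read counts, and the depth that the study gives by library was not used, so no counting error was attached to a peak value. Mapping CAST reads to another genome and pooling livers can both affect strain differences.

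Peaks on the 19 autosomes were joined into regions, annotated with GENCODE vM1 on NCBIM37 and given the highest fold enrichment and percentile of score in each list. Log2 ratios were centred on their median over all regions found in all lists. Sequence features were compared by a sign-flip permutation test over autosomes, which was tested on simulated data. The members and lists were chosen with earlier results of these data known. Regions were named by rule: the 3 highest of each distance class, the 3 leading in each direction, the largest groups, and the genes with most members. Some items that this rule picks are not reported here. The regions near Ghr, Cyp3a25 and Samd9l, the genes singled out from the lists of sex-biased genes by direction, the RefSeq starts of zinc finger genes and the sequence near Fam174a were chosen after their values were seen. Alternatives changed the overlap, the peak and fold limits, the annotation, the centring, the sequence window and the gap between grouped members. Python 3.11.15, numpy 2.4.6, pandas 2.3.3, scipy 1.17.1, matplotlib 3.10.9, pysam 0.24.0 and BLAST+ 2.17.0 were used.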

Additional observations from a re-analysis of the deposited data

Results flagged for a closer look

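In 3 of 13038 members the direction of a difference was opposite in the groups compared, past 1.5-fold in each. The share over all regions was not computed. The difference between the groups was not tested because each value rests on pooled lists, so so few members cannot be told from noise. The region at chr1:52001253-52001829, 3.15 kb from Gm8420, had enrichments of 1.91-fold in males and 2.94 in females of B6, and 3.45 and 2.01 in those of CAST. Its centred log2 ratio of male to female was -0.61 in B6 and 0.70 in CAST. The lower peak in each strain was weak, at percentile 2.26 of score in B6 males and 7.75 in CAST females. The region at chr1:89070269-89071478, 15.7 kb from Chrnd, a subunit of the muscle acetylcholine receptor, had 4.55, 6.98, 4.90 and 2.58 in the same order. Here the ratio was -0.61 in B6 and 0.85 in CAST. The region at chr2:134539029-134540025, 69.2 kb from Tmx4, a thioredoxin-related membrane protein, had 3.25, 1.78, 2.29 and 2.75. Its centred log2 ratio of B6 to CAST was 0.60 in males and -0.62 in females.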

How the results depend on the processing

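No paired analysis was possible because every list combines its 5 livers, and for the same reason no replicate could be left out. With peaks of fold 3 or more only, 4290 members were left. Past 2-fold, 0 members leaned to males and 0 to females, and 1 leaned to B6 and 5 to CAST. Without centring, 48 leaned to B6 and 122 to CAST. Counting any coding start within 100 kb gave 11334 genes. Leaving out each autosome in turn gave 3 to 4 sequence features past the threshold against gene-body regions and 7 to 8 for far against near members; windows of 500 bp gave 4 and 10. In all, 69 counts stayed within 1.5 times the reported ones, those with an autosome left out and with 500 bp windows among them. Of single features, 213 values kept their direction and side of the threshold. Leaving out members near a RefSeq start (11845 left) or without a base covered in every list (12729 left) were alternatives chosen after seeing the data. The lists hold no read counts, so the counting error of small differences in fold enrichment was not computed.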
